A study of Mus musculus with 8 samples.

Results

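The set describes 10 genes of bone morphogenetic protein (BMP) signalling in the mouse hippocampus: the ligands Bmp2, Bmp4, Bmp5, Bmp6 and Bmp7, the receptors Bmpr1a, Bmpr1b and Bmpr2, and the secreted antagonists Nog (noggin) and Chrd (chordin). They are 10 of 24421 genes, taken by symbol from the count tables of both ages. The set was chosen by the measured levels of these genes in all 4 groups, and all 10 passed the filter on low counts. RNA came from hippocampi of wildtype C57BL/6J mice labelled male, in 4 groups of 2 libraries each. The IUGR groups (intrauterine growth retardation) were offspring of dams injected intraperitoneally with dexamethasone, a synthetic glucocorticoid, at 1 mg/kg daily for 5 days from 14.5 days post coitum, and the NS groups were offspring of dams given the same volume of normal saline. Each treatment was sampled at postnatal day 3 and at week 8, which gave the groups IUGR at day 3, NS at day 3, IUGR at week 8 and NS at week 8. The sources used here do not say whether the 2 libraries of a group came from separate animals or litters, so errors and p-values reflect how far these libraries scatter, a scatter that may be technical. The growth restriction was produced by the injected glucocorticoid itself, and no group separates restricted growth from glucocorticoid exposure.

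BMPs are secreted ligands of the TGF-beta superfamily that bind complexes of type I receptors, such as those made from Bmpr1a and Bmpr1b, with type II receptors such as that made from Bmpr2. The activated type I receptor phosphorylates SMAD1, SMAD5 and SMAD9, which enter the nucleus with SMAD4 and induce target genes such as the Id family of transcription regulators. Noggin and chordin bind the ligands outside the cell and keep them from their receptors. In the hippocampus BMP signalling is known for holding neural stem cells of the dentate gyrus in quiescence and for favouring an astrocytic fate, and the meninges are a known source of BMP ligands beside the developing brain.

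The promoter sequences below belong to the 4 members whose level at postnatal day 3 was lower in both IUGR libraries than in both NS libraries and for which a sequence was at hand. Each is the run of 250 bases before the transcription start, 5′ to 3′ on the gene's strand, from RefSeq on GRCm38.p6. Capitals mark GGCGCC, a GC-rich sequence bound by SMAD proteins, which occurs once in the Chrd sequence and in none of the other 3. The regions are chr14:46390670-46390919 (minus strand) for Bmp4, chr9:75775115-75775364 (plus strand) for Bmp5, chr13:38345466-38345715 (plus strand) for Bmp6 and chr16:20732877-20733126 (plus strand) for Chrd. The start of Bmp6 differs between annotations, and its window here lies inside the gene as GENCODE M21 places it.
Bmp4: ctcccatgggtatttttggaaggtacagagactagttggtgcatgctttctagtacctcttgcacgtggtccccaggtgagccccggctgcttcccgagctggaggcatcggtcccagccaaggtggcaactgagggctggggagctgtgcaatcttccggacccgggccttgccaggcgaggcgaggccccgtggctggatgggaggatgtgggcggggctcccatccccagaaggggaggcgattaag
Bmp5: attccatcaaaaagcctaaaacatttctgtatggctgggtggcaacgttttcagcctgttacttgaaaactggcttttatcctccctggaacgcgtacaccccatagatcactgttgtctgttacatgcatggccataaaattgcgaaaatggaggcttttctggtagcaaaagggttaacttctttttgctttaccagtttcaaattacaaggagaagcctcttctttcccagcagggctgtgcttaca
Bmp6: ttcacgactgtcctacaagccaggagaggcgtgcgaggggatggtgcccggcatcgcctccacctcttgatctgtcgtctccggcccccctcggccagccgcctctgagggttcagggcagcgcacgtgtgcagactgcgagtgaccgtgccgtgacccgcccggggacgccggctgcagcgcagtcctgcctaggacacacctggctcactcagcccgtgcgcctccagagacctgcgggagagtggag
Chrd: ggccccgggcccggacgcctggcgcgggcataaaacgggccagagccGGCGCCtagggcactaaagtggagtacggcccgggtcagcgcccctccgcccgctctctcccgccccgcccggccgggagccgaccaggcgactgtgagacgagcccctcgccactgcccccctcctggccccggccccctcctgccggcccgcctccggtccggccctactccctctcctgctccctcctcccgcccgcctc
The Chrd sequence was the richest of the 4 in CG dinucleotides, with 28, followed by Bmp6 with 22, Bmp4 with 11 and Bmp5 with 4. Over 32851 promoters of that table the median was 6, with quartiles of 2 and 16. Of the 10 members, 7 had an entry in the table. Read on both strands, GGCGCC occurred once each in Bmpr1a, Bmpr2 and Chrd, and in 9.59% of all promoters. The half-site of the glucocorticoid receptor, AGAACA, occurred once in Bmpr2 and in no other of the 7, against 16.1% of all promoters. The full element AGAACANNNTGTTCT, which contains that half-site, occurred in none of the 7 and in 0.00913% of all promoters. These matches describe letters in a window and not binding.

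In the GENCODE M21 annotation of GRCm38, Bmp2 lies at chr2:133552159-133562885 and Bmp7 at chr2:172868012-172940321. Bmp4 lies at chr14:46383520-46390669, Bmp5 at chr9:75775364-75900310 and Bmp6 at chr13:38345107-38500302. Bmpr1a lies at chr14:34410734-34503341, Bmpr1b at chr3:141837136-142169425 and Bmpr2 at chr1:59763400-59879014. Nog lies at chr11:89300638-89302332 and Chrd at chr16:20733127-20742384. Bmp2, Bmp7, Bmpr1b and Nog overlap no other annotated gene. The other 6 do: Bmp6 overlaps Txndc5 and Chrd overlaps Thpo on the opposite strand, and Bmp4, Bmp5, Bmpr1a and Bmpr2 overlap unnamed gene models. Whether counting used the strand is not given in the sources used here, so reads of such partners cannot be told apart.

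The libraries held between 13030277 and 18993050 counts over genes. As an approximate upper limit for a count of 0, 3 counts were used, which correspond to 0.158 to 0.230 CPM (counts scaled to a library total of 1000000). Hippocampal neuron markers, 12 genes that include the granule cell gene Prox1, summed to between 616 and 1374 CPM and none was at 0 in any library. Some libraries stood apart from their labels or their group. At day 3, both replicate 2 libraries had Xist counts of 5130 (IUGR) and 4998 (NS) and Y-linked counts, over 4 genes, of 74 and 34, although labelled male, while the replicate 1 libraries had 81 and 4 Xist counts and 5364 and 3783 Y-linked counts. At week 8, the RNase P RNA gene Rpph1 had 2 counts (IUGR) and 0 counts (NS) in the replicate 2 libraries, against 4.91 to 7.69% of all counts in the other 6 libraries. The main differences of the members are therefore also given within replicate 1 and within replicate 2, or without the libraries in question.

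Corrected for gene length (RPKM, the CPM divided by gene length in kilobases), Bmpr1a and Bmpr2 had the highest mean levels at day 3, at 22.4 and 22.6 in IUGR and 21.3 and 20.8 in NS, and the libraries of those 2 genes overlapped. Bmpr1b, at 3.54 in IUGR and 2.97 in NS, was well below both. In NS at day 3 the most abundant ligand per length was Bmp7 at 4.95 RPKM, above Bmp6 at 3.56 with no overlap between their libraries. Bmp6 overlapped Bmpr1b, and Bmpr1b overlapped Bmp4, which was at 2.47. In IUGR at day 3 Bmp6 was at 2.61 and Bmp7 at 2.40, and the libraries of these 2 overlapped. Bmp4 had the lowest mean there, 0.727, overlapping Bmp2 at 0.885, and Bmp2 overlapped Bmp5 at 0.963. In NS at day 3 the lowest was Bmp2 at 0.662. At week 8 Chrd followed Bmpr2 and Bmpr1a in IUGR, with a mean of 11.6 RPKM, and followed Bmpr2 alone in NS, with 20.2 RPKM, and its libraries overlapped those of Bmpr1a in both and of Bmpr2 in NS. This place rested on the replicate 2 libraries: Chrd had 4.80 and 18.45 RPKM in IUGR (replicates 1 and 2) and 4.27 and 36.1 RPKM in NS, and its replicate 1 level was below those of Bmpr1b (10.9 in IUGR and 12.1 in NS) and Bmp6 (5.05 in IUGR and 11.6 in NS). Bmpr2 headed the order at week 8 with 23.0 RPKM in IUGR and 21.6 in NS.

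**Figure D1:**
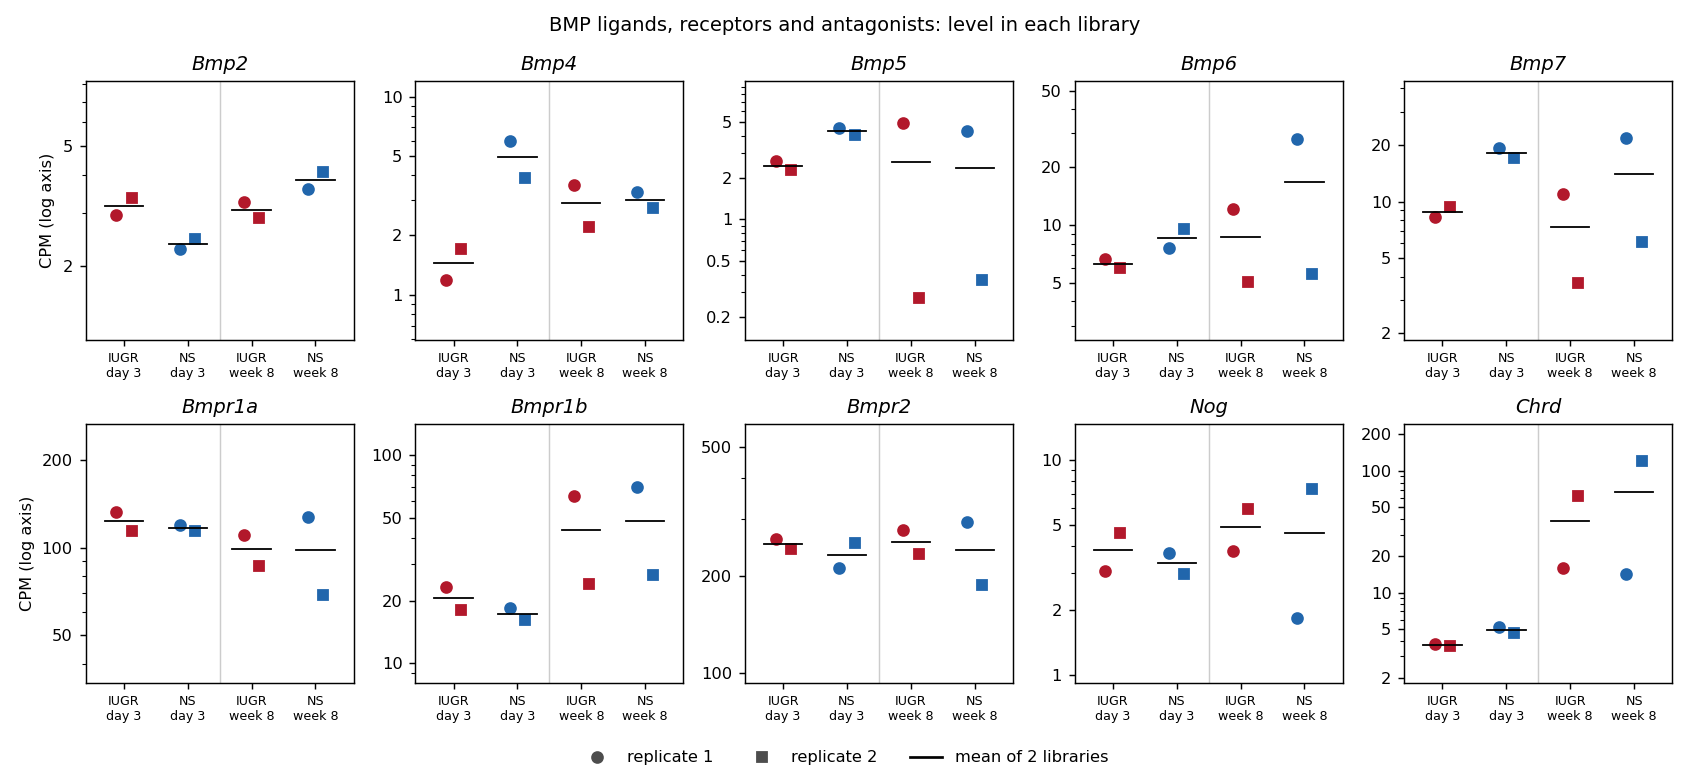
CPM of each of the 10 genes in each of the 8 libraries, on log axes; circles are replicate 1, squares replicate 2, red IUGR, blue NS, and lines mark the mean of 2 libraries. Bmp4, Bmp5, Bmp6, Bmp7 and Chrd lie lower in both IUGR libraries than in both NS libraries at day 3, while at week 8 the replicates of a group lie apart for Bmp5, Bmp6, Bmp7, Bmpr1b and Chrd.

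At postnatal day 3, 4 of the 5 ligands and chordin were lower in IUGR hippocampi than in NS hippocampi, the receptors lay close together, and Bmp2 was slightly higher in IUGR. The set was proposed with these levels known, so the members' differences are given as a description, with standard errors and without p-values. Log2 fold changes are IUGR over NS from edgeR on all 8 libraries (± SE).

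Bmp4, a ligand active in neural tube patterning and in adult neural stem cells, had 1.19 and 1.71 CPM in the IUGR libraries of day 3 (replicates 1 and 2), against 5.98 and 3.88 CPM in NS. Both IUGR libraries were below both NS libraries, and these are low levels, with 21 and 31 counts in IUGR and 87 and 68 in NS. Means were 1.45 ± 0.37 CPM in IUGR and 4.93 ± 1.49 in NS (SD, n = 2 each), and the log2 fold change was -1.76 ± 0.45. Set replicate by replicate, the ratio of IUGR to NS was 0.199 for replicate 1 and 0.440 for replicate 2, so the size depended on the replicate while the direction did not. Without both replicate 2 libraries of day 3 the log2 fold change was -2.32 ± 0.82.

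Bmp7, a ligand made by meningeal and other mesenchymal cells and known to act on hippocampal progenitors, had 8.33 and 9.31 CPM in IUGR at day 3, against 19.2 and 17.1 CPM in NS. The groups did not overlap and the replicates of each lay close together. The mean was 8.82 ± 0.69 CPM in IUGR and 18.2 ± 1.5 in NS (SD, n = 2 each), a log2 fold change of -1.04 ± 0.68. Its SE was 0.17 when day 3 was fitted alone, where the week 8 libraries take no part in the spread. Within replicates the ratio was 0.434 and 0.544, and without both replicate 2 libraries of day 3 the log2 fold change was -1.20 ± 1.18.

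Bmp5, a close relative of Bmp6 and Bmp7, had 2.61 and 2.26 CPM in IUGR at day 3, against 4.54 and 4.05 CPM in NS. Its log2 fold change was -0.82 ± 1.29, or -0.82 ± 0.29 with day 3 fitted alone. Bmp6, best known in the body as a regulator of iron balance through hepcidin, had 6.63 and 5.95 CPM in IUGR, against 7.63 and 9.53 CPM in NS, and a log2 fold change of -0.45 ± 0.74. Both genes were lower in both IUGR libraries. For Bmp5 the ratio was alike in the 2 replicates, 0.575 and 0.558. For Bmp6 it was 0.869 and 0.624, and the log2 fold change shrank to -0.20 without both replicate 2 libraries of day 3. Bmp2, an osteogenic ligand also made by neural cells, went the other way, with 2.95 and 3.36 CPM in IUGR, against 2.27 and 2.45 CPM in NS, and a log2 fold change of 0.41 ± 0.33.

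The receptor genes overlapped between groups at day 3. Bmpr1a, the type I receptor widely expressed in neural progenitors, had 132 and 114 CPM in IUGR, against 119 and 114 CPM in NS (log2 fold change 0.076 ± 0.313). Bmpr1b, a second type I receptor, had 23.2 and 18.1 CPM in IUGR, against 18.5 and 16.2 CPM in NS (0.25 ± 0.57). Bmpr2, the type II receptor, had 259 and 241 CPM in IUGR, against 211 and 251 CPM in NS (0.12 ± 0.27). The direction turned for Bmpr1a, to -0.073, without the IUGR replicate 1 library of day 3, and for Bmpr2, to -0.028, without the NS replicate 1 library. Among the antagonists, Nog had 3.06 and 4.57 CPM in IUGR, against 3.71 and 2.97 CPM in NS, with overlap and replicate ratios on either side of 1 (0.824 and 1.54). Chrd had 3.80 and 3.64 CPM in IUGR, against 5.23 and 4.62 CPM in NS, both IUGR libraries being lower, with a log2 fold change of -0.41 ± 1.01.

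**Figure D2:**
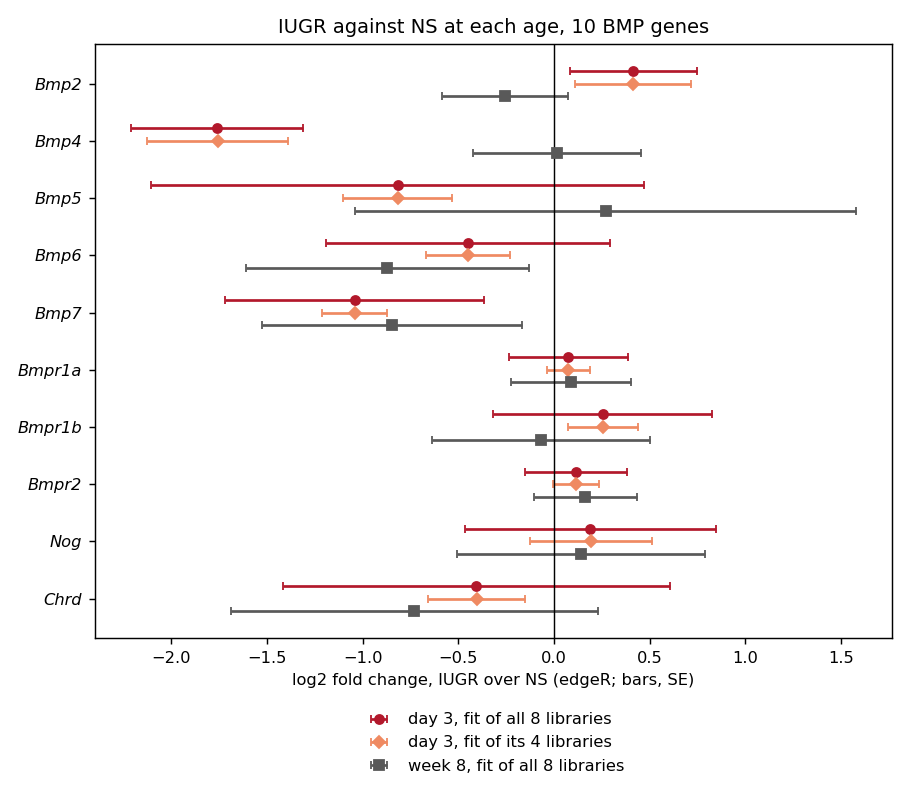
Log2 fold change of IUGR over NS for each gene (horizontal axis, with SE bars) at day 3 from the fit of all 8 libraries (red circles), at day 3 from the fit of its 4 libraries (orange diamonds) and at week 8 from the fit of all 8 libraries (grey squares). The day 3 points of Bmp4 and Bmp7 lie at -1.76 and -1.04, and the SE of Bmp7 falls to 0.17 in the fit of day 3 alone.

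No overlap between the groups at day 3 was found for 6 of 10 members, 5 lower (Bmp4, Bmp5, Bmp6, Bmp7 and Chrd) and 1 higher (Bmp2). Among all 15999 genes tested 36.3% had no overlap, 16.6% being lower and 19.7% higher. By edgeR on all libraries 0% of genes were called at an adjusted p under 0.05, and 0 of 10 members; at an unadjusted p under 0.05 there were 96 of 15999 genes. EdgeR on day 3 alone also called 0 genes, with 839 at an unadjusted p under 0.05, and DESeq2 on all libraries called 0. DESeq2 on day 3 alone called 65 genes, 0.421% of those tested, of which 63 were lower in IUGR (0.408%) and 2 higher (0.0130%), and among the members it called Bmp7. Nothing is read from the members' calls, since the set was chosen on these values. The median log2 fold change was -0.17 over the members and 0.0093 over all genes.

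Transcripts of some other cell types were also lower in IUGR at day 3. The 16 markers of meninges and fibroblasts, such as Col1a1 and Dcn, summed to 485 and 488 CPM in IUGR at day 3, against 894 and 867 CPM in NS. All 16 were lower in both IUGR libraries, with a median log2 fold change of -0.95, and none was at 0 in any library. In bulk tissue, fewer cells of a type and less RNA per cell cannot be told apart. The 14 endothelial and mural markers summed to 169 and 168 CPM in IUGR, against 259 and 228 CPM in NS, and 12 of them were lower without overlap. Among all genes 16.6% were lower without overlap at day 3. EdgeR on all libraries called 0 of the meningeal and 0 of the endothelial markers, and the lists were chosen with earlier results of these data known. The 12 choroid plexus markers varied by library rather than by group, with 3267 and 464 CPM in IUGR and 97.5 and 6361 CPM in NS. The part of these markers in the BMP differences was not tested.

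**Figure D3:**
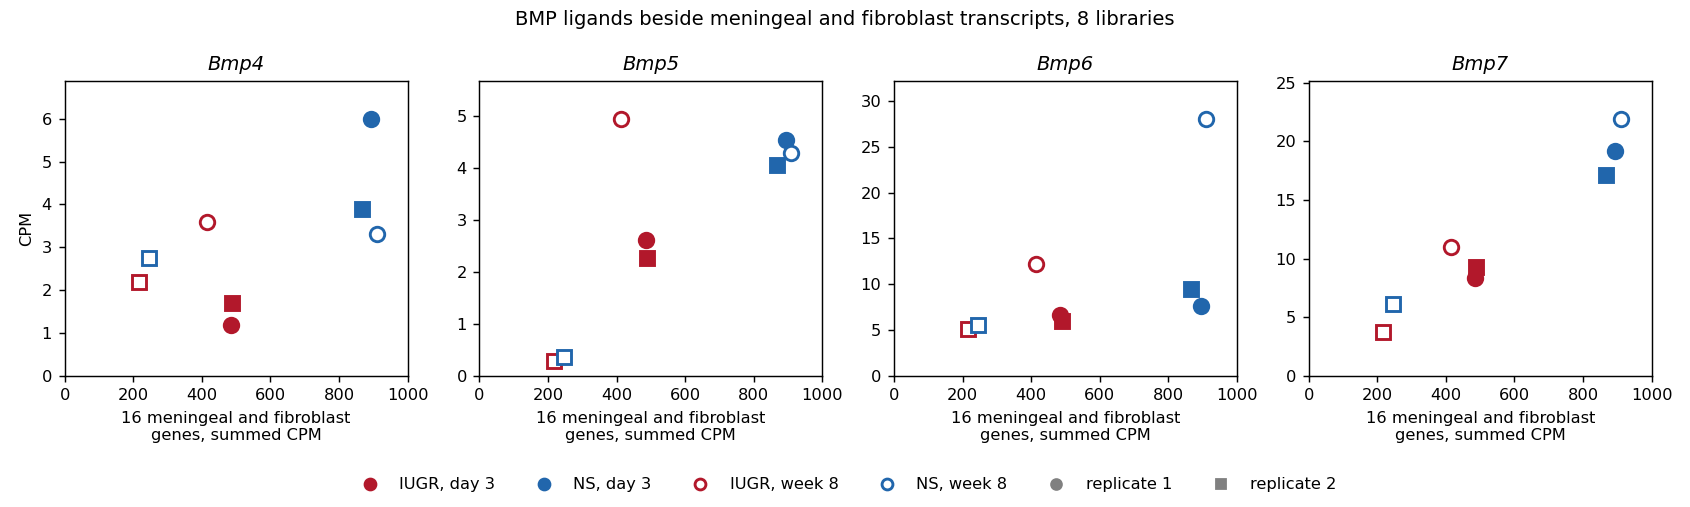
CPM of Bmp4, Bmp5, Bmp6 and Bmp7 (vertical axes) against the summed CPM of 16 meningeal and fibroblast genes (horizontal axes) in each of the 8 libraries; filled symbols are day 3, open symbols week 8, red IUGR, blue NS. Bmp7 is at 3.70 and 6.11 CPM in the 2 libraries with the lowest sums (216 and 246 CPM) and at 17.1 to 21.9 CPM in the 3 with the highest (867 to 909 CPM). Bmp4 is at 2.19 and 2.74 CPM in the former and at 3.30 to 5.98 CPM in the latter. Its lowest values, 1.19 and 1.71 CPM, are in the IUGR libraries of day 3, with sums between these (485 and 488 CPM). Bmp7 is at 8.33 and 9.31 CPM there, and at 11.0 CPM in the IUGR replicate 1 library of week 8 (414 CPM).

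At week 8 the groups overlapped for 9 of the 10 members, and for every member but Bmp2 and Bmp6 the 2 libraries of each group lay further apart in CPM than the group means. Replicate differences of the 2 groups went together at this age, with a correlation of 0.818 over 15999 genes. The main fit has no term for the replicate, so its SEs and the overlaps at week 8 also hold this shared difference. Bmp7 had 11.0 and 3.70 CPM in IUGR (replicates 1 and 2), against 21.9 and 6.11 CPM in NS, with a log2 fold change of -0.85 ± 0.68. Replicate by replicate the ratio was 0.501 and 0.606, so IUGR was lower in each although the pooled ranges overlapped. Bmp6 had 12.2 and 5.07 CPM in IUGR, against 28.0 and 5.53 CPM in NS, a ratio of 0.435 within replicate 1 and 0.918 within replicate 2 (log2 fold change -0.87 ± 0.74). Without the NS replicate 1 library of week 8 these log2 fold changes turned to 0.32 for Bmp7 and 0.70 for Bmp6. That fit sets both IUGR libraries against NS replicate 2 alone, and replicate 2 was the lower replicate in both groups. The ratio of replicate 2 to replicate 1 was 0.338 in IUGR and 0.279 in NS for Bmp7, and 0.417 and 0.197 for Bmp6. The NS replicate 1 library of week 8 also held the highest meningeal sum, 909 CPM, and 6842 CPM of choroid plexus markers. The other week 8 libraries held 414 and 216 CPM (IUGR) and 246 CPM (NS) of the meningeal genes, and 81.4 and 72.1 CPM (IUGR) and 90.8 CPM (NS) of the choroid plexus genes, and the part of these in the ligand values was not tested.

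Bmp4 had 3.58 and 2.19 CPM in IUGR at week 8, against 3.30 and 2.74 CPM in NS, with a log2 fold change of 0.015 ± 0.437. Both NS levels of Bmp4 lay between the IUGR levels at week 8, unlike at day 3. Bmp5 split by replicate number, with 4.94 and 0.274 CPM in IUGR and 4.30 and 0.369 CPM in NS; the replicate 2 libraries held 4 counts (IUGR) and 7 counts (NS), with exact Poisson intervals of 1.09 to 10.2 and 2.81 to 14.4 counts that cover counting error only. Bmp2 was the 1 member without overlap, with 3.25 and 2.88 CPM in IUGR, against 3.61 and 4.11 CPM in NS, and a log2 fold change of -0.26 ± 0.33. Among all genes 13.1% had no overlap at week 8, 9.01% being lower and 4.08% higher.

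The receptor genes overlapped between IUGR and NS at week 8. Bmpr1b had 63.3 and 24.0 CPM in IUGR, against 70.3 and 26.5 CPM in NS, a ratio of 0.900 within replicate 1 and 0.904 within replicate 2. Bmpr1a had 111 and 86.2 CPM in IUGR, against 127 and 68.9 CPM in NS, and Bmpr2 had 277 and 233 CPM in IUGR, against 293 and 187 CPM in NS. Chrd had 16.03 and 61.6 CPM in IUGR, against 14.3 and 120.7 CPM in NS. Its IUGR to NS ratio was 1.12 for replicate 1 and 0.511 for replicate 2, and the pooled log2 fold change of -0.73 ± 0.96 turned to 0.25 ± 0.27 without both replicate 2 libraries of week 8. Nog had 3.79 and 5.96 CPM in IUGR, against 1.84 and 7.37 CPM in NS, with ratios of 2.06 and 0.809. EdgeR on all libraries called 0% of genes at week 8 and 0 of 10 members, with 161 genes at an unadjusted p under 0.05; edgeR on week 8 alone called 0, and DESeq2 called 1 gene, lower in IUGR and no member, on all libraries (0.00625%) and 1 gene, lower in IUGR and again no member, on week 8 alone (0.00660%).

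The difference of the IUGR effects, week 8 minus day 3, was largest for Bmp4 among the members, at 1.78 ± 0.62 on the log2 scale, and was 1.09 ± 1.84 for Bmp5 and -0.67 ± 0.47 for Bmp2. For Bmp7 it was 0.20 ± 0.95. The Bmp4 difference lay between 1.40 and 2.33 over 14 alternatives. The same fit called 0% of genes for this difference, with 82 genes at an unadjusted p under 0.05.

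Between the ages, chordin and Bmpr1b were higher at week 8 in both treatments, whichever libraries were compared. The ages also differed in their libraries. Both replicate 2 libraries of day 3 had high Xist counts (5130 and 4998), against 1 to 50 in the week 8 libraries. Both replicate 2 libraries of week 8 had almost no Rpph1 counts (2 and 0). The part of these in the age differences of the members and of other pathway genes was not tested. Chrd had 16.03 and 61.6 CPM at week 8, against 3.80 and 3.64 CPM at day 3 in IUGR, and 14.3 and 120.7 CPM at week 8, against 5.23 and 4.62 CPM at day 3 in NS. Its log2 fold change, week 8 over day 3, was 3.49 ± 1.07 in IUGR and 3.81 ± 1.08 in NS. The size depended on the week 8 replicate 2 libraries: without both of them it was 2.22 ± 0.24 in IUGR and 1.55 ± 0.24 in NS. Bmpr1b had 63.3 and 24.0 CPM at week 8, against 23.2 and 18.1 CPM at day 3 in IUGR, and 70.3 and 26.5 CPM, against 18.5 and 16.2 CPM, in NS. Its log2 fold change was 1.18 ± 0.58 in IUGR and 1.50 ± 0.58 in NS. The size rested on the replicate 1 libraries of week 8: without the IUGR one it was 0.32 in IUGR, and without the NS one it was 0.64 in NS.

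The log2 fold change of Bmp4 between ages had opposite signs in the 2 treatments. In IUGR it had 3.58 and 2.19 CPM at week 8, against 1.19 and 1.71 CPM at day 3 (log2 fold change 1.10 ± 0.45), and in NS it had 3.30 and 2.74 CPM at week 8, against 5.98 and 3.88 CPM at day 3 (-0.68 ± 0.43). Neither pair of ages overlapped. Without the IUGR replicate 1 library of week 8 the value in IUGR was 0.70. Without the NS replicate 1 library of day 3 the value in NS was -0.35. Bmp2 did not overlap between ages in NS, where it was 1.63 times as high at week 8, and overlapped in IUGR. Bmpr1a did not overlap in IUGR, with 111 and 86.2 CPM at week 8, against 132 and 114 CPM at day 3. Bmp5, Bmp6, Bmp7, Bmpr2 and Nog overlapped between ages in both treatments. In IUGR 4 members did not overlap (Bmp4, Bmpr1b and Chrd higher and Bmpr1a lower at week 8), against 66.0% of all genes (28.1% higher and 37.9% lower), and in NS 4 (Bmp2, Bmpr1b and Chrd higher and Bmp4 lower), against 61.8% (29.2% higher and 32.6% lower). EdgeR on all libraries called 16.8% of genes in IUGR (9.34% higher and 7.48% lower at week 8) and 14.1% in NS (7.70% higher and 6.44% lower), and 0 of 10 members in each. DESeq2 on all libraries called 28.6% of genes in IUGR (15.8% higher and 12.9% lower) and 25.7% in NS (14.2% higher and 11.5% lower), among them Chrd in IUGR, and Bmpr1b and Chrd in NS, all higher at week 8.

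**Figure D4:**
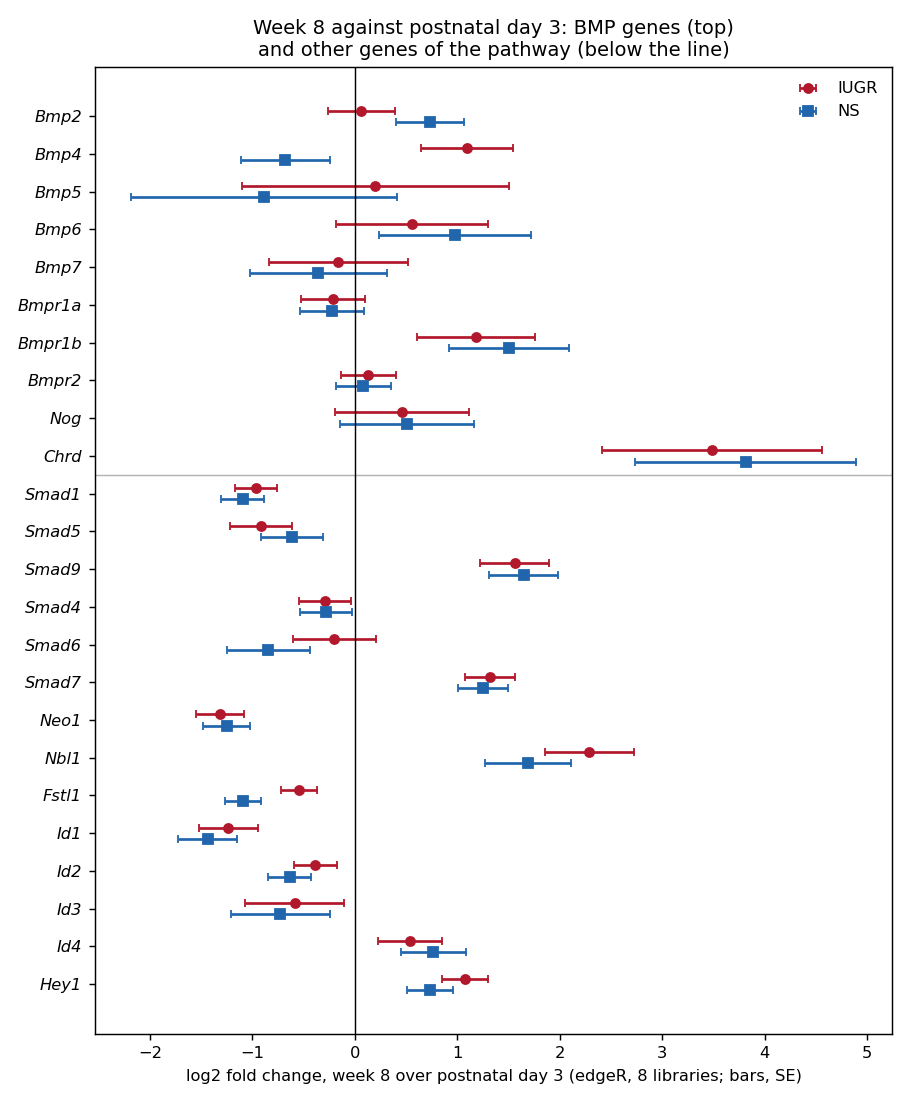
Log2 fold change of week 8 over day 3 (horizontal axis, with SE bars, edgeR on 8 libraries) in IUGR (red circles) and NS (blue squares) for the 10 BMP genes above the line and 14 other genes of the pathway below it. Chrd lies at 3.49 in IUGR and 3.81 in NS, Bmp4 lies on opposite sides of 0 in IUGR and NS, and Smad1 and Id1 lie below 0 while Smad7, Smad9 and Nbl1 lie above it.

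The rest of the pathway was followed through 59 other genes in 6 lists, of which 48 could be tested. None was called between IUGR and NS by edgeR on all libraries at either age or for the difference between ages, with 2 at day 3, 0 at week 8 and 0 for the difference at an unadjusted p under 0.05. At day 3, 32 of the 48 had a negative log2 fold change, with a median of -0.047, against 7678 of all 15999 genes. Of the 12 secreted antagonists and modulators tested, 11 were negative, with a median of -0.22; the difference from all genes was not tested. Fstl1, a secreted follistatin-like protein that binds BMP4 and is abundant in mesenchymal cells, had 75.1 and 74.5 CPM in IUGR at day 3, against 109 and 107 CPM in NS. Its log2 fold change was -0.53 ± 0.17 (edgeR, adjusted p = 1, unadjusted p = 0.0187), and DESeq2 on day 3 alone gave -0.54 (adjusted p = 0.0248, the lowest over 17 alternatives, the highest being 1). Tgfbr3, a co-receptor also called betaglycan, had 8.96 and 8.38 CPM in IUGR, against 16.9 and 18.9 CPM in NS. Its log2 fold change was -1.05 ± 0.43 (edgeR, adjusted p = 1, unadjusted p = 0.0463), and DESeq2 on day 3 alone gave -1.06 (adjusted p = 0.00954, again the lowest of 17). Both genes were low where the meningeal sum was low at day 3, and the part of the meningeal genes was not tested.

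Nbl1, a secreted BMP antagonist of the DAN family, had 12.8 and 12.3 CPM in IUGR at day 3, against 25.4 and 16.3 CPM in NS (log2 fold change -0.74 ± 0.42, edgeR, adjusted p = 1). The endothelial type I receptor gene Acvrl1 had 2.55 and 2.37 CPM in IUGR, against 3.58 and 3.42 CPM in NS (-0.51 ± 0.40). Among other ligands, Gdf5 (0.40 ± 0.87) and Gdf9 (0.29 ± 0.50) had positive values at day 3. All 4 intracellular mediators had positive values, Smad1 with 56.2 and 62.2 CPM in IUGR, against 48.3 and 48.5 CPM in NS (0.29 ± 0.20), and Smad5 (0.18 ± 0.30), Smad4 (0.043 ± 0.252) and Smad9 (0.0024 ± 0.3370) nearer to 0. The inhibitory Smad6 (-0.34 ± 0.40) and Smad7 (-0.20 ± 0.24) had negative values and the pseudoreceptor gene Bambi a positive one (0.34 ± 0.34). None of these passed the test. With 1 library of day 3 left out at a time, Smad6 (-0.70 to 0.12), Smad4 (-0.14 to 0.19) and Smad9 (-0.30 to 0.24) turned direction, and Nbl1 lay between -1.02 and -0.40, Gdf5 between 0.20 and 0.61, Gdf9 between 0.039 and 0.57 and Smad5 between 0.081 and 0.25.

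Of the transcriptional targets, Id1 had 32.7 and 36.1 CPM in IUGR at day 3, against 40.9 and 46.1 CPM in NS (log2 fold change -0.34 ± 0.28), and Id3 had 61.7 and 70.8 CPM in IUGR, against 83.3 and 79.9 CPM in NS (-0.30 ± 0.48). Both were lower in both IUGR libraries, and neither passed the test (edgeR, adjusted p = 1 for each). Id2 (0.067 ± 0.211) and Id4 (0.38 ± 0.32) had positive values. Msx1, a homeobox target of BMP signalling, had -0.88 ± 0.57, and Atoh8, a transcription factor gene, had -0.58 ± 0.43. For Msx1 the ratio of IUGR to NS was 0.933 in replicate 1 and 0.367 in replicate 2, and the log2 fold change was -0.21 without the NS replicate 2 library of day 3. For Atoh8 the ratio was 0.495 in replicate 1 and 0.848 in replicate 2, and the log2 fold change was -0.29 without the IUGR replicate 1 library. Id2 turned to -0.074 and Id4 to -0.021 with 1 library left out, the IUGR replicate 1 library for Id2 and the IUGR replicate 2 library for Id4. At week 8 the median over the 48 genes was -0.00082, with 24 values on either side of 0. Smad1 had 30.2 and 26.1 CPM in IUGR at week 8, against 24.9 and 19.6 CPM in NS (0.42 ± 0.21, edgeR, adjusted p = 1). Of the other named genes at week 8, Chrdl1 had 0.63 ± 0.40, Bambi 0.51 ± 0.34 and Id2 0.32 ± 0.21, while Tgfbr3 had -0.66 ± 0.42 and Acvrl1 -0.63 ± 0.40. Each of these sizes depended on single libraries. For Tgfbr3 the ratio of IUGR to NS was 0.373 in replicate 1 and 1.18 in replicate 2, and the log2 fold change turned to 0.15 without the NS replicate 1 library of week 8. For Acvrl1 the ratio was 0.943 in replicate 1 and 0.442 in replicate 2, and the log2 fold change was -0.068 without the NS replicate 2 library. With 1 library left out at a time, Chrdl1 lay between 0.25 and 1.17, Bambi between 0.13 and 1.03 and Id2 between 0.17 and 0.48. The endothelial and mural markers summed to 168 and 127 CPM in IUGR at week 8, against 319 and 224 CPM in NS. Without overlap, 12 of 14 were lower and 1 was higher, against 9.01% and 4.08% of all genes. EdgeR on all libraries called 0 of the 14.

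Between ages 7 of the 48 passed the test in each treatment by edgeR on all libraries, a share close to the 16.8% of all genes called in IUGR and the 14.1% in NS, so the count does not set the pathway apart. In both treatments Smad7, Smad9 and Nbl1 were higher at week 8 and Smad1, Id1 and Neo1 lower. Smad9 had 13.8 and 11.2 CPM at week 8, against 3.68 and 5.46 CPM at day 3 in IUGR (log2 fold change 1.56 ± 0.34, adjusted p = 0.0271), and 16.3 and 11.8 CPM, against 3.85 and 5.25 CPM, in NS (1.65 ± 0.34, adjusted p = 0.0267). Smad1, which encodes another signal carrier of the same receptors, fell to 30.2 and 26.1 CPM at week 8, against 56.2 and 62.2 CPM at day 3 in IUGR (-0.97 ± 0.21, adjusted p = 0.0257), and to 24.9 and 19.6 CPM, against 48.3 and 48.5 CPM, in NS (-1.10 ± 0.21, adjusted p = 0.0211). Smad5 had -0.92 ± 0.31 in IUGR (adjusted p = 0.0864) and -0.61 ± 0.30 in NS (adjusted p = 0.215), and Smad4 -0.29 ± 0.25 in IUGR and -0.28 ± 0.25 in NS.

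Smad7, an inhibitor of receptor signalling, had 17.9 and 18.5 CPM at week 8, against 7.99 and 7.66 CPM at day 3 in IUGR, and 18.3 and 23.8 CPM, against 9.63 and 8.39 CPM, in NS. Its log2 fold change was 1.32 ± 0.25 in IUGR (adjusted p = 0.0177) and 1.25 ± 0.24 in NS (adjusted p = 0.0232). Id1 fell to 15.2 and 11.9 CPM at week 8, against 32.7 and 36.1 CPM at day 3 in IUGR (-1.24 ± 0.29, adjusted p = 0.0327), and to 19.7 and 11.9 CPM, against 40.9 and 46.1 CPM, in NS (-1.44 ± 0.29, adjusted p = 0.0246). The other Id genes did not pass: Id2 had -0.39 ± 0.21 in IUGR and -0.64 ± 0.21 in NS, Id3 -0.59 ± 0.48 and -0.73 ± 0.48, and Id4 0.54 ± 0.32 and 0.77 ± 0.32.

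Nbl1 was the most raised of the called genes, with 39.5 and 74.7 CPM at week 8, against 12.8 and 12.3 CPM at day 3 in IUGR (2.29 ± 0.43, adjusted p = 0.0179), and 49.7 and 82.4 CPM, against 25.4 and 16.3 CPM, in NS (1.69 ± 0.42, adjusted p = 0.0438). Neo1, which encodes neogenin, a receptor that binds repulsive guidance molecules and BMPs, fell by 1.32 ± 0.23 in IUGR (adjusted p = 0.0151) and by 1.25 ± 0.23 in NS (adjusted p = 0.0201) on the log2 scale. Hey1, a target shared with Notch signalling, rose in IUGR (1.07 ± 0.23, adjusted p = 0.0247) and had 0.73 ± 0.22 in NS (adjusted p = 0.0781). Fstl1 fell in NS (-1.09 ± 0.17, adjusted p = 0.0134) and had -0.54 ± 0.17 in IUGR (adjusted p = 0.076). The differences between treatments, 0.34 ± 0.32 for Hey1 and 0.55 ± 0.24 for Fstl1, did not pass the test (adjusted p = 1 for each). These calls depended on which libraries entered the fit, where all groups shared 1 estimate of the spread. Leaving out any 1 day 3 library, also one of the other treatment, removed all calls in NS and most in IUGR. Every one of the named changes kept its direction. For Smad1 in NS, for example, the adjusted p lay between 0.0196 and 0.159 over the 8 fits that leave out 1 library. In IUGR no call was left without the IUGR replicate 2 library of week 8. In NS, without the NS replicate 2 library of week 8, only Smad9 and Fstl1 of these genes stayed called, while Tgfbr3 and Chrdl1 came in. Astrocyte markers, 12 genes, summed to 5962 and 6361 CPM at week 8, against 1317 and 1375 CPM at day 3 in IUGR, and 6170 and 6727 CPM, against 1712 and 1323 CPM, in NS; their part in these changes was not tested.

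The members differed in how widely they ranged over the 8 libraries, from 4.71 on the log2(CPM + 1) scale for Chrd, 2.28 for Bmp7 and 2.26 for Bmp6 down to 0.65 for Bmpr2 and 0.64 for Bmp2. Among 13084 genes, those with the smallest root mean square difference from Chrd over the 8 libraries, each centred on its own mean, were Plekhg5 (0.176), Rreb1 (0.176) and Mast3 (0.244). Plekhg5 had 34.8 and 154 CPM in IUGR and 34.9 and 223 CPM in NS at week 8, higher in the replicate 2 libraries like Chrd, as the likeness by which it was picked entails. For Chrd the ratio of replicate 2 to replicate 1 at week 8 was 3.85 in IUGR and 8.46 in NS. Those closest to Bmp7 were Vstm4 (0.174), Abca9 (0.175) and Phldb2 (0.187). Vstm4 had 4.93 and 5.13 CPM in IUGR at day 3, against 9.15 and 9.82 CPM in NS. Those closest to Bmp6 were Lama2 (0.165), which encodes a laminin chain of basement membranes, Ddx60 (0.180) and Sntb1 (0.213). Lama2 had 37.2 and 16.9 CPM in IUGR at week 8, against 71.8 and 17.2 CPM in NS, and so shared the high NS replicate 1 value of Bmp6.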

How the data were processed

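Per the labels, hippocampal total RNA was depleted of ribosomal RNA, reverse transcribed with random primers and sequenced in paired ends on a HiSeq X-ten. The authors deposited, for each age, a table of raw read counts by gene symbol with gene lengths. Build mm10, HISAT2 2.1.0, featureCounts 1.6.1, cutadapt 1.16, SAMtools 1.9 and DESeq2 1.26.0 appear in the submitters' processing notes. The strand setting of the counting is not given in the sources used here, nor is its treatment of multiply mapped reads. The authors' normalized tables were not used.

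With edgeR 4.0.16 (R 4.3.3), TMM scaling and filterByExpr (15999 genes kept), 1 model with a mean for each of the 4 groups was fitted to all 8 libraries. The quasi-likelihood F test was applied to 5 comparisons, with Benjamini-Hochberg adjustment over all genes and an adjusted p under 0.05. SE is the log2 fold change divided by the square root of F. CPM and RPKM were computed from the counts without TMM factors. The script was tested on simulated data with known changes. There edgeR on all libraries recovered 0% of 2-fold and 26% of 4-fold changes between IUGR and NS at day 3. At week 8 it recovered 2% and 18%. EdgeR on day 3 alone recovered 64% of 2-fold and 92% of 4-fold changes, and on week 8 alone 0% and 2%. The simulated libraries did not hold the replicate difference that both groups shared at week 8. A count of 0 called genes therefore does not show equal levels. DESeq2 on day 3 alone made 207 calls there, of which 35 were false. Alternatives were RLE scaling, no filter, DESeq2 1.42.0, fits of each age alone, the replicate number as a block, and fits without libraries; where 1 library remained in a group, its spread was taken to be that of the other groups. Totals of 13030277 to 18993050 counts limit the precision of low genes, and counting intervals (95%, exact Poisson) cover counting error only.

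The members and all lists were chosen with earlier results of these data known. All members, Id1 to Id4, Smad1, Smad4 to Smad7 and Smad9, and from each other list the 2 genes with the smallest p per comparison, were to be named, and the text gives those that bear on a result. A gene under this rule is not reported here. Genes of like pattern were the 3 with the smallest root mean square difference for each of the 3 members of widest range, with a mean of at least 1 CPM, leaving out unnamed gene models. 1 listed gene, Hjv, was not analysed here. Of the marker lists, Sostdc1 also stands among the antagonists.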

Additional observations from a re-analysis of the deposited data

Results flagged for a closer look

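Bmp2 was higher in both IUGR libraries than in both NS libraries at postnatal day 3 (2.95 and 3.36 CPM in IUGR, against 2.27 and 2.45 CPM in NS) and lower in both at week 8 (3.25 and 2.88 CPM in IUGR, against 3.61 and 4.11 CPM in NS). At week 8 the ratio of IUGR to NS for Bmp2 was 0.900 in replicate 1 and 0.701 in replicate 2. The difference of the IUGR effects, week 8 minus day 3, was -0.673 ± 0.467 (log2, SE). Bmp4 was higher at week 8 than at day 3 in both pairs of IUGR libraries and lower in both pairs of NS libraries, and the difference of these changes, IUGR minus NS, was 1.78 ± 0.62. Both differences are descriptions without a test, since the genes were chosen with their levels known.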

How the results depend on the processing

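At postnatal day 3 the direction of Bmp2, Bmp4, Bmp5, Bmp6, Bmp7, Bmpr1b and Chrd was the same under all 17 alternatives, with log2 fold changes, IUGR over NS, from -2.32 to -1.44 for Bmp4, -1.20 to -0.98 for Bmp7, -0.96 to -0.71 for Bmp5, -0.62 to -0.20 for Bmp6, -0.49 to -0.34 for Chrd and 0.33 to 0.47 for Bmp2. At week 8 only Bmp2 kept its direction under all 17, with values from -0.37 to -0.066. The value nearest 0 came without both replicate 2 libraries of week 8. Leaving out the IUGR or the NS replicate 1 library gave Bmp7 -1.84 or 0.32 and Bmp5 -2.95 or 2.86. Such a fit sets both libraries of a group against only the replicate 2 library of the other. Bmp5 and Bmp7 were lower in replicate 2 than in replicate 1 in both groups at week 8. The cause was not tested. DESeq2 on day 3 alone called 65 genes, 1 member (Bmp7) and 2 other pathway genes, and DESeq2 called 1 gene at week 8 on all libraries and 1 on week 8 alone. Between ages, DESeq2 on all libraries called 4581 genes (28.6%), 1 member and 12 other pathway genes in IUGR. In NS it called 4110 genes (25.7%), 2 members and 12 other pathway genes. The fits without libraries used edgeR, and their values are log2 fold changes, week 8 over day 3. Without both replicate 2 libraries of day 3, 1 library is left per day 3 group and no call between ages remained. Chrd was then at 3.44 in IUGR and 3.72 in NS, and Bmpr1b at 0.997 and 1.40. Without both replicate 2 libraries of week 8, edgeR called 6778 genes, 5 members (Bmp4, Bmp5, Bmp6, Bmpr1b and Chrd) and 19 other pathway genes in IUGR and 6201, 3 (Bmp6, Bmpr1b and Chrd) and 19 in NS, all members higher at week 8. Leaving out 1 library at a time gave 92 to 4069 genes, 0 to 1 member and 0 to 9 other pathway genes in IUGR and 51 to 3801, 0 to 1 and 0 to 11 in NS. RLE scaling and no filter changed none of the counts of members or other pathway genes. Same-numbered libraries deviated from their group means together at week 8 (correlation of replicate differences 0.818 over 15999 genes) and not at day 3 (-0.065). With 2 pairs, the numbers were not taken as pairing in the main fit, so its week 8 SEs also hold the shared replicate difference. The replicate block on all libraries called 0 members in each of the 5 comparisons. Between ages it called 8 other pathway genes in IUGR and 8 in NS, against 7 and 7 without the block. Nothing is read from these counts. On week 8 alone the block gave Bmp7 -0.81 ± 0.25, against -0.86 ± 0.85 by edgeR on week 8 alone without it. Depth limits Bmp2 at both ages (33 to 78 counts), Bmp4 at day 3 (21 to 87 counts) and Bmp5 at week 8 (4 to 73 counts).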
